A study of Mus musculus with 12 samples.

Results

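Klf4 and 9 other members of the Krüppel-like factor (KLF) family were followed through 12 RNA-seq libraries in which Klf4 was, or was not, silenced. The members were the genes of 2 expression tables whose symbols were Klf4, Klf2, Klf3, Klf5, Klf6, Klf7, Klf9, Klf10, Klf13 and Klf15, which makes 10 of the 52636 genes listed. All 10 were found in both tables and passed the filter on low values. The tables came from murine airway smooth muscle cells (SMCs) and from lung PDGFR-β+ cells, each treated with scrambled RNA (Scr) or with a small interfering RNA against Klf4 (siKlf4), with 3 libraries per group. The question here was whether the other KLF genes moved in the direction opposite to Klf4 when it was silenced. The SMCs were purchased primary C57BL/6 cells that the labels describe as tracheal, WT and of no stated age. The PDGFR-β+ cells are labelled C57BL/6, WT and 12 weeks old. Per the study's methods, they were cells carrying the ZsGreen reporter, sorted from Pdgfrb-CreER T2, ROSA26R(Zs/+) mouse lungs, so they were chosen by a marked Pdgfrb lineage and then grown in culture. Replicates are described as independent experiments. For SMCs, the columns of 1 Scr and of 1 siKlf4 library have a name without a replicate number, and these 2 libraries are called unnumbered. The deviations of the 2 unnumbered SMC libraries from their group means correlated with each other across genes (0.36), as did those of the numbered pairs to a smaller degree (0.19 and 0.20). The SMC result of each member is therefore also given from the numbered libraries, as is that of a gene list where its count differs.

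KLF proteins bind GC-rich and CACCC sequences through C-terminal zinc fingers that are nearly alike across the family, so that members can occupy the same sites. Their N-terminal parts differ and recruit different partners. KLF2, KLF4, KLF5, KLF6 and KLF7 bind acetyltransferases and mostly activate transcription, KLF3 recruits the CtBP corepressors, and KLF9, KLF10 and KLF13 recruit the Sin3 corepressor complex. KLF4 is best known in smooth muscle for repressing contractile genes during the switch to a synthetic state, and in stem cells for its overlap with KLF2 and KLF5.

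The genes lie on 10 different chromosomes of mm10 (GENCODE M21). Klf4 itself spans chr4:55527143-55532466 on the reverse strand. Klf2 lies at chr8:72319033-72321656, Klf9 at chr19:23141226-23168134 and Klf15 at chr6:90462576-90475238, all on the forward strand. Klf7, at chr1:64029447-64122282, and Klf13, at chr7:63886351-63938915, are both on the reverse strand. In the annotation, Klf3, Klf7, Klf9 and Klf13 share positions with small RNA genes or noncoding genes and, for Klf13, with the protein-coding gene E030018B13Rik on the opposite strand. None of these neighbours was above 4.48 TPM in any library, and E030018B13Rik was listed at 0 in all of them.

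RefSeq promoter windows (GRCm38.p6) covered 8 of the 10 members, all except Klf5 and Klf10. The 250 bases before the start site are printed for Klf4, as the silenced gene, for Klf2 and Klf9, which were lower with siKlf4 in both cell types, and for Klf7 and Klf13, which were higher with siKlf4 in PDGFR-β+ cells. Each reads 5′ to 3′ on the strand of its gene. The RefSeq start sites differ from the GENCODE starts for some members. The Klf7 window lies wholly inside the GENCODE span of Klf7, and the windows of Klf2, Klf3 and Klf6 run into the spans of their genes. Capitals mark the letters CACCC, the core of the KLF site, and GGGCGG, the GC box of SP factors, on either strand.
Klf4, chr4:55532476-55532725, reverse: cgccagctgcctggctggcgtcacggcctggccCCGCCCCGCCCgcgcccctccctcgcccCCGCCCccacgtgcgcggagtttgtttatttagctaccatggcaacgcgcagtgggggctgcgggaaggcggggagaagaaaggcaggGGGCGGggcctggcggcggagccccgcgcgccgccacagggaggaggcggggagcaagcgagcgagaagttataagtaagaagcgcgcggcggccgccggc
Klf2, chr8:72318812-72319061, forward: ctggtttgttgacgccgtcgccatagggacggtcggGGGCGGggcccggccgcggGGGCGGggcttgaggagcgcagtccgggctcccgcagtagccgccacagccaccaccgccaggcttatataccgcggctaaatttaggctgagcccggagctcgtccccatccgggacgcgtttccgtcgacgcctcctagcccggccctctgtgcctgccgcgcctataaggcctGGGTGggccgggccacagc
Klf9, chr19:23140976-23141225, forward: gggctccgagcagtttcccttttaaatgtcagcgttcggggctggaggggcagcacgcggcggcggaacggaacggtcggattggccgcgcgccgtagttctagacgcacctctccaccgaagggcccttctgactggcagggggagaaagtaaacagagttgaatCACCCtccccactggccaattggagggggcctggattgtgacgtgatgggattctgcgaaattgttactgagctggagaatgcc
Klf7, chr1:64121390-64121639, reverse: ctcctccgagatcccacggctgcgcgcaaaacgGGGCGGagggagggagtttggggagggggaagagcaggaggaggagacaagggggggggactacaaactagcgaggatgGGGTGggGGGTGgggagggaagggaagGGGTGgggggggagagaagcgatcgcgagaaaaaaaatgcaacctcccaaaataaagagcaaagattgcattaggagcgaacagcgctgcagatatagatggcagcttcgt
Klf13, chr7:63938916-63939165, reverse: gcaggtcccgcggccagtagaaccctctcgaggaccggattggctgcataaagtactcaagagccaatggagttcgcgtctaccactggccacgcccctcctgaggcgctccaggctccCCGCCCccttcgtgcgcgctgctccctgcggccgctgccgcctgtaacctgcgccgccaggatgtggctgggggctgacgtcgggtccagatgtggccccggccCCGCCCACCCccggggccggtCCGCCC

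Searched over the full window of 250 bases before and 50 after the start site, CACCC was found at least once in 57.5% of 32851 RefSeq promoters and GGGCGG in 35.7%. The Klf4 window held no CACCC and 4 GC boxes, a number reached by 5.5% of promoters. Klf3 had the most of both among the members, with 5 CACCC matches (1.0% of promoters hold as many) and 6 GC boxes (1.3%). Klf7 held 3 CACCC matches, while Klf2, Klf9, Klf13 and Klf15 held 1 each and Klf6 none. A CACCC match and a GC box share a base in Klf3 and in Klf13. The Klf2 window held 1 MEF2 element, at -118, a motif present in 3.2% of promoters and the known route by which MEK5, ERK5 and MEF2 factors induce Klf2. No member held a CArG box, the site of serum response factor, which 1.6% of promoters hold. These matches describe the letters in the windows and do not show binding.

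**Figure D1:**
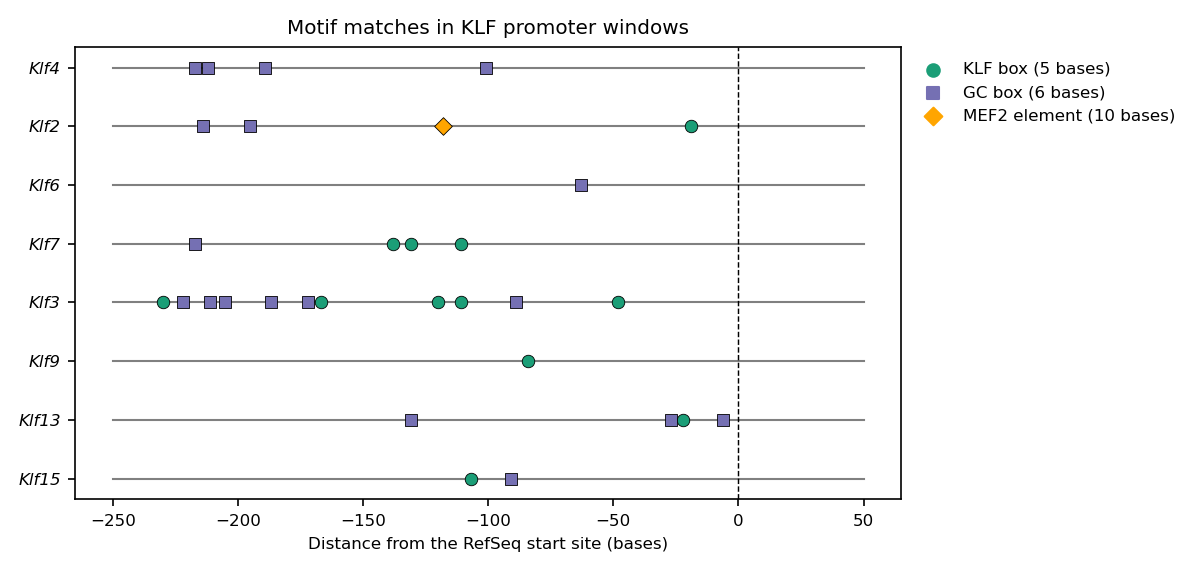
Motif matches in the promoter windows of 8 KLF members, by distance from the RefSeq start site in bases (x axis); circles are KLF boxes, squares GC boxes and the diamond the MEF2 element, each at its first base on the gene's strand. Klf4 and Klf6 have no KLF box, and Klf3 has 5 of them.

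Klf4 was lower in every siKlf4 library of both cell types. In SMCs, Klf4 stood at 89.6, 96.3 and 95.0 TPM in the unnumbered Scr library and in Scr replicates 2 and 3, and at 26.5, 16.3 and 18.8 TPM in the matching siKlf4 libraries. In PDGFR-β+ cells, the 3 Scr libraries held 144, 146 and 134 TPM and the 3 siKlf4 libraries 12.3, 13.8 and 12.8 TPM. The groups did not overlap in either cell type, and the unnumbered siKlf4 library kept the most Klf4. TPM (transcripts per 1000000) is a level per transcript length, so it can be compared between genes, and tests were made by limma on log2(TPM + 1) with Benjamini-Hochberg adjustment over all genes tested and a threshold of 0.05. On that scale Klf4 fell by 2.16 (SE 0.16, adjusted p = 0.00075) in SMCs and by 3.35 (SE 0.08, adjusted p = 3.3e-06) in PDGFR-β+ cells. The mean siKlf4 level was 21.9% of Scr in SMCs and 9.16% in PDGFR-β+ cells, and the fall was 1.19 deeper on the log2 scale in the latter (adjusted p = 0.00069 for the interaction, limma). Among the numbered SMC libraries, Klf4 fell by 2.38 (adjusted p = 0.0028).

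At baseline, in Scr cells, Klf6 was the most abundant member in both cell types and Klf4 held a different place in each. In SMCs the order of mean TPM (n = 3) was Klf6 at 183 ± 4.99 (SD), Klf9 at 139 ± 17.9, Klf3 at 110 ± 9.94, Klf13 at 94.3 ± 7.67, Klf4 at 93.6 ± 3.57, Klf15 at 63.3 ± 3.92, Klf7 at 35.5 ± 3.41, Klf2 at 23.5 ± 3.31, Klf5 at 13.7 ± 3.40 and Klf10 at 12.3 ± 2.23. Klf3, Klf13 and Klf4 overlapped as neighbours, as did Klf5 and Klf10, and every other step was free of overlap. In PDGFR-β+ cells the order was Klf6 at 171 ± 3.85, Klf4 at 141 ± 6.16, Klf3 at 104 ± 1.43, Klf9 at 66.1 ± 6.03, Klf10 at 29.9 ± 5.87, Klf13 at 28.0 ± 1.39, Klf7 at 23.1 ± 0.721, Klf2 at 17.0 ± 2.08, Klf15 at 6.85 ± 1.07 and Klf5 at 3.10 ± 0.234. Only Klf10 and Klf13 overlapped as neighbours there. Klf4 thus ranked behind Klf6 alone in PDGFR-β+ cells, where it made up 23.9% of the summed TPM of the 10 members, and behind Klf6, Klf9, Klf3 and Klf13 in SMCs, with 12.2%.

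Side by side, 7 members were above in Scr SMCs, 2 were above in Scr PDGFR-β+ cells and Klf3 overlapped. Klf15, a glucocorticoid-induced regulator of metabolism, was 9.24-fold higher in SMCs, Klf5, which promotes smooth muscle proliferation, 4.41-fold, Klf13 3.36-fold and Klf9 2.10-fold. Klf10, an early gene of TGF-β signalling, was 2.43-fold and Klf4 1.51-fold higher in PDGFR-β+ cells. The tables come from different cell sources and were made separately, so these folds of mean TPM are a description without a test.

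**Figure D2:**
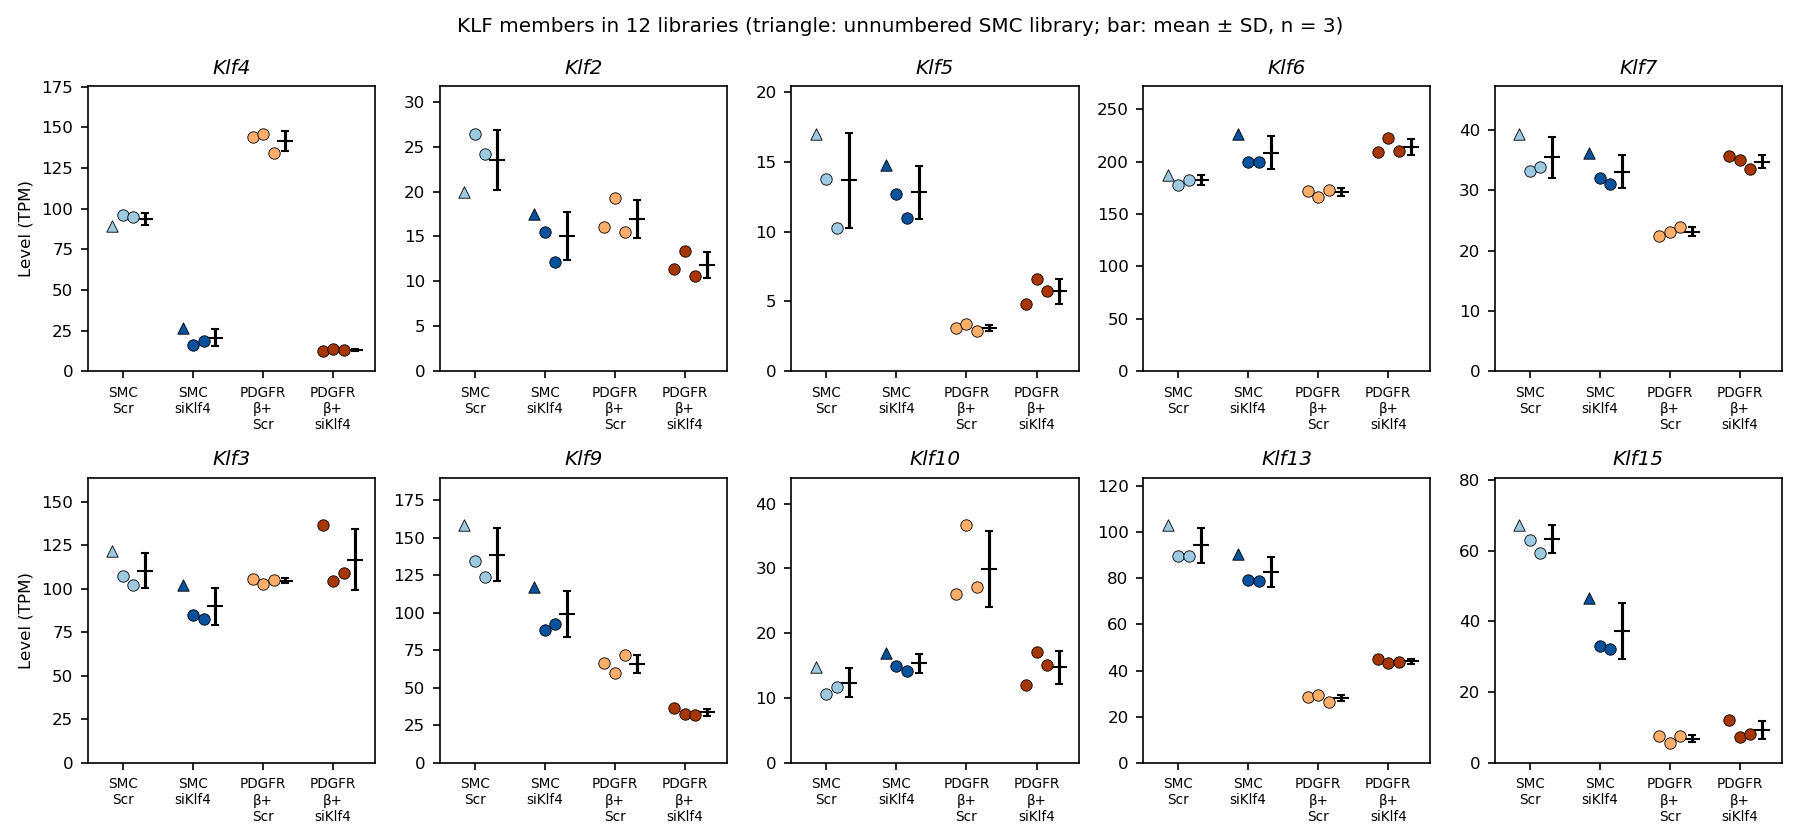
Level of each KLF member in TPM (y axis, from 0, own scale per gene) in the 4 groups (x axis); each point is 1 library, triangles are the unnumbered SMC libraries, and bars give the mean ± SD of 3 libraries. Klf4 drops in both cell types, while Klf5, Klf7 and Klf13 lie higher with siKlf4 in PDGFR-β+ cells and overlap between treatments in SMCs.

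Among the 9 paralogues, none rose in SMCs and 3 fell (Klf2, Klf9 and Klf15), while in PDGFR-β+ cells 4 rose (Klf5, Klf6, Klf7 and Klf13) and 3 fell (Klf2, Klf9 and Klf10). Of all 13709 genes tested in SMCs, 15.6% were called higher and 12.9% lower by limma, and of 13694 in PDGFR-β+ cells, 25.3% were called higher and 15.3% lower. At an unadjusted p under 0.05, 1 paralogue was higher in SMCs (Klf6) and 4 were lower. Counted by libraries without overlap, 1 paralogue lay above and 4 below Scr in SMCs, beside 25.6% and 21.5% of all genes, and 4 lay above and 3 below in PDGFR-β+ cells, beside 33.9% and 19.8%. The median log2 fold change of the 9 paralogues was -0.18 in SMCs, where that of all genes was 0.02, and 0.32 in PDGFR-β+ cells, where that of all genes was 0.10. The 4 rises in PDGFR-β+ cells passed under both alternative scalings and with any 1 library left out. With median-ratio scaling the share of higher genes among all called in PDGFR-β+ cells went from 62.3% to 47.0%, and the paralogues still counted 4 higher and 3 lower.

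The SMC counts moved with the libraries. In the numbered libraries alone, 1 paralogue was higher (Klf10) and 5 were lower (Klf2, Klf3, Klf9, Klf13 and Klf15). Without Scr replicate 2, siKlf4 replicate 2 or siKlf4 replicate 3, 1 paralogue was called lower, and without the unnumbered Scr library 1 was called higher and 2 lower. Klf15 was called lower in SMCs in each of these fits. With a term for the unnumbered libraries, 2 paralogues were higher (Klf6 and Klf10) and 5 lower (Klf2, Klf3, Klf9, Klf13 and Klf15). With the replicate as a block and the unnumbered libraries taken as a pair, which the labels do not state and which was chosen after seeing the data, 1 was higher (Klf6) and the same 5 were lower.

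**Figure D3:**
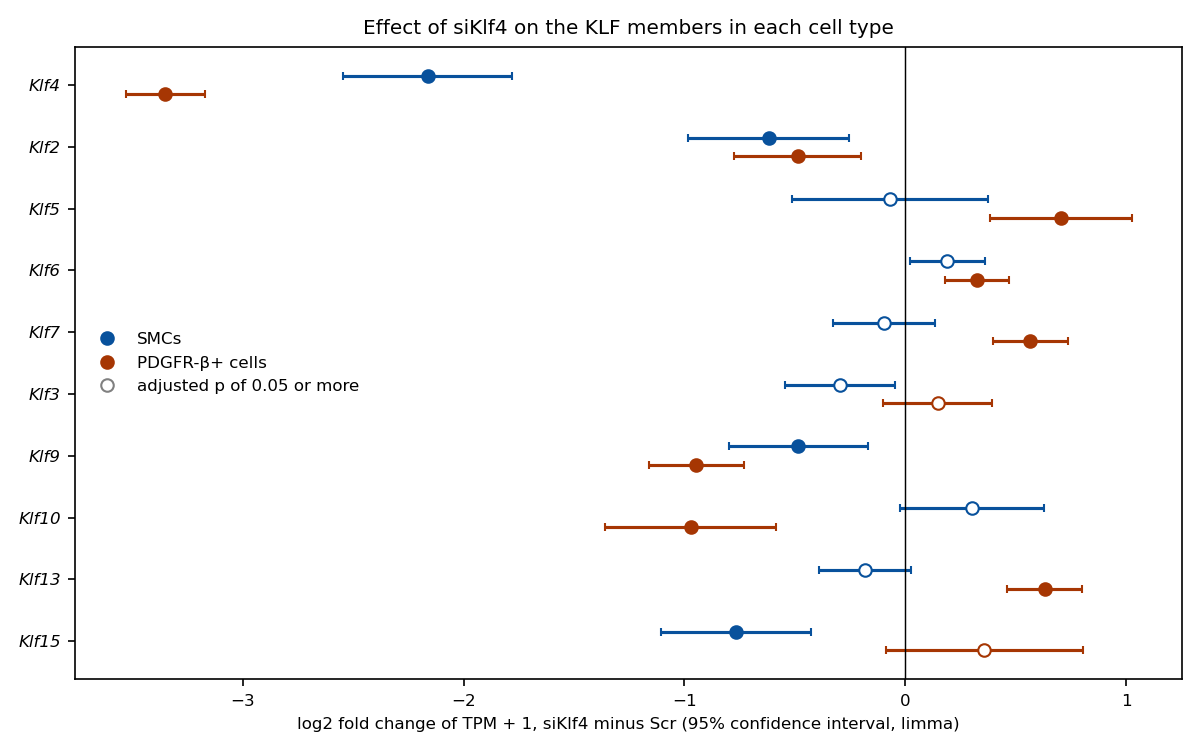
Log2 fold change of TPM + 1, siKlf4 minus Scr (x axis), for each KLF member in SMCs (blue) and PDGFR-β+ cells (brown); points are limma estimates with 95% confidence intervals and open points did not pass an adjusted p of 0.05. Klf2 and Klf9 lie below 0 in both cell types, and Klf5, Klf6, Klf7 and Klf13 lie above 0 with filled points in PDGFR-β+ cells alone.

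Klf2 is the member closest to Klf4 in sequence and keeps endothelium quiescent. Its SMC levels were 19.9, 26.5 and 24.2 TPM in the unnumbered Scr library and in Scr replicates 2 and 3, and 17.4, 15.4 and 12.2 TPM with siKlf4. In PDGFR-β+ cells they were 16.1, 19.3 and 15.5 TPM with Scr, against 11.4, 13.4 and 10.6 TPM with siKlf4. All siKlf4 libraries lay below all Scr libraries in each cell type. Klf2 fell by 0.62 (SE 0.15, adjusted p = 0.025) in SMCs and by 0.49 (SE 0.12, adjusted p = 0.017) in PDGFR-β+ cells, and by 0.84 (adjusted p = 0.016) in the numbered SMC libraries. The SMC call was lost with no filter on low values (adjusted p = 0.061) and without any 1 of the 4 numbered libraries (adjusted p from 0.064 to 0.081), and the PDGFR-β+ call was lost without siKlf4 replicate 1 (adjusted p = 0.0503) or siKlf4 replicate 3 (adjusted p = 0.058).

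Klf5 was low in PDGFR-β+ cells, at 3.08, 3.35 and 2.88 TPM with Scr and, under siKlf4, 4.79, 6.62 and 5.76 TPM. The groups did not overlap, and Klf5 rose by 0.70 (SE 0.14, adjusted p = 0.0057), on a log2(TPM + 1) scale that understates changes of low genes. In SMCs it read 17.0, 13.8 and 10.2 TPM with Scr, against 14.8, 12.7 and 11.0 TPM with siKlf4. Those groups overlapped, and the difference was -0.07 (95% confidence interval -0.51 to 0.37, adjusted p = 0.80), or -0.0087 (adjusted p = 0.97) in the numbered libraries.

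Klf6, an immediate early gene of tissue injury, had the highest level of all members. In PDGFR-β+ cells it read 172, 166 and 173 TPM with Scr and, under siKlf4, 209, 223 and 210 TPM, and in SMCs 188, 178 and 183 TPM with Scr, against 227, 199 and 200.0 TPM with siKlf4. Every siKlf4 library lay above every Scr library in both cell types. The rise of 0.32 (SE 0.06, adjusted p = 0.0050) passed in PDGFR-β+ cells, whereas the SMC difference of 0.19 did not (95% confidence interval 0.02 to 0.36, adjusted p = 0.090; 0.15 with adjusted p = 0.064 in the numbered libraries). The SMC difference did pass in a joint fit of both cell types (adjusted p = 0.038), with a term for the unnumbered libraries (adjusted p = 0.022) and with the block of 3 SMC pairs (adjusted p = 0.046).

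Klf7, known from neuronal development and from adipocytes, showed tight groups. In PDGFR-β+ cells its levels were 22.5, 23.1 and 23.9 TPM with Scr and, under siKlf4, 35.7, 35.0 and 33.6 TPM. This was a rise of 0.57 (SE 0.07, adjusted p = 0.00087) without overlap. In SMCs it held 39.4, 33.3 and 33.8 TPM with Scr, against 36.2, 32.1 and 31.1 TPM with siKlf4, which overlapped, with a difference of -0.10 (95% confidence interval -0.33 to 0.14, adjusted p = 0.49), or -0.085 (adjusted p = 0.34) in the numbered libraries.

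Klf3, a CtBP-dependent repressor, did not pass in either cell type with all libraries and no block. Its SMC levels were 121, 107 and 102 TPM with Scr and, under siKlf4, 102, 85.0 and 82.4 TPM. These groups touched without overlapping, with a difference of -0.30 (95% confidence interval -0.54 to -0.05, adjusted p = 0.076). The numbered libraries alone gave -0.32 (adjusted p = 0.017), and the SMC difference also passed with quantile normalization (adjusted p = 0.036), with a term for the unnumbered libraries (adjusted p = 0.0055), with the block in the numbered libraries (adjusted p = 0.035) and over all 3 pairs (adjusted p = 0.013), and without the unnumbered siKlf4 library (adjusted p = 0.032). In PDGFR-β+ cells, Scr libraries at 106, 103 and 105 TPM and siKlf4 libraries at 137, 104 and 109 TPM overlapped, and siKlf4 replicate 1 was the high one. That difference was 0.15 (95% confidence interval -0.10 to 0.39, adjusted p = 0.30) with all libraries and 0.03 without replicate 1.

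The 3 Sin3-recruiting members each followed a different course. Klf9, which glucocorticoids and thyroid hormone induce, fell in both cell types. It stood at 159, 134 and 124 TPM in Scr SMCs and at 117, 88.4 and 92.3 TPM with siKlf4, and in PDGFR-β+ cells at 66.7, 59.9 and 71.9 TPM with Scr and, under siKlf4, 36.4, 32.8 and 32.1 TPM. Neither pair of groups overlapped, and the mean siKlf4 level was 71.4% of Scr in SMCs and 51.1% in PDGFR-β+ cells. The falls were 0.48 (SE 0.13, adjusted p = 0.034) in SMCs and 0.95 (SE 0.09, adjusted p = 0.00027) in PDGFR-β+ cells. The SMC call passed in the numbered libraries (a fall of 0.51, adjusted p = 0.0093) and was lost without the unnumbered Scr library, Scr replicate 2, siKlf4 replicate 2 or siKlf4 replicate 3 (adjusted p from 0.077 to 0.11), with no filter (adjusted p = 0.079) and without the mean-variance trend (adjusted p = 0.051).

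Klf10 was lower with siKlf4 in PDGFR-β+ cells, with Scr libraries at 26.1, 36.7 and 27.1 TPM and siKlf4 libraries at 12.0, 17.1 and 15.1 TPM. The groups did not overlap, the mean was 49.2% of Scr, and Klf10 fell by 0.97 (SE 0.17, adjusted p = 0.0032). In SMCs, 14.8, 10.6 and 11.6 TPM with Scr met 16.9, 14.9 and 14.2 TPM with siKlf4, an overlap set by the unnumbered Scr library. The SMC difference was 0.30 (95% confidence interval -0.02 to 0.63, adjusted p = 0.14), and 0.36 (adjusted p = 0.048) in the numbered libraries. It also passed with a term for the unnumbered libraries (adjusted p = 0.030) and without the unnumbered Scr library (adjusted p = 0.036).

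Klf13, known from T cells and heart development, rose in PDGFR-β+ cells from 28.4, 29.2 and 26.5 TPM with Scr to 45.0, 43.1 and 43.8 TPM with siKlf4. The gap between the groups was wider than the spread within either, with a rise of 0.63 (SE 0.07, adjusted p = 0.00056). In SMCs it held 103, 89.9 and 89.8 TPM with Scr, against 90.4, 79.3 and 79.0 TPM with siKlf4. Within both treatments the unnumbered library was the high one, so the groups overlapped, and the difference of -0.18 did not pass with all libraries (adjusted p = 0.16) but did in the numbered ones (-0.18, adjusted p = 0.049), with a term for the unnumbered ones (adjusted p = 0.017) and with the block of 3 pairs (adjusted p = 0.040).

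Klf15, which stands outside the cofactor groups, fell in SMCs from 67.3, 63.1 and 59.5 TPM with Scr to 46.5, 33.2 and 32.2 TPM with siKlf4. There was no overlap, and the fall was 0.77 (SE 0.14, adjusted p = 0.0093), or 0.89 (adjusted p = 0.0035) when the numbered libraries were taken alone. In PDGFR-β+ cells it was a minor member, at 7.50, 5.62 and 7.44 TPM with Scr and, under siKlf4, 12.1, 7.37 and 8.11 TPM. These overlapped, and the difference of 0.36 did not pass (95% confidence interval -0.09 to 0.81, adjusted p = 0.17).

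Whether the response differed between the cell types was tested by the interaction term of a fit over all 12 libraries, which called 33.0% of 13032 genes. Besides Klf4, 6 paralogues passed. Relative to PDGFR-β+ cells, the siKlf4 effect in SMCs was lower for Klf13 by 0.82 (adjusted p = 0.00025), for Klf7 by 0.66 (adjusted p = 0.0014), for Klf15 by 1.12 (adjusted p = 0.0061), for Klf5 by 0.77 (adjusted p = 0.029) and for Klf3 by 0.44 (adjusted p = 0.049), and it was higher for Klf10 by 1.28 (adjusted p = 0.0016). The terms for Klf7, Klf10, Klf13 and Klf15 passed under every alternative run. Those for Klf3 and Klf5 lay near the threshold. The Klf3 term was lost without any 1 library (adjusted p from 0.055 to 0.11) other than the unnumbered SMC siKlf4 library, SMC Scr replicate 3 and PDGFR-β+ siKlf4 replicate 2, with median-ratio scaling (adjusted p = 0.098), with no filter (adjusted p = 0.078) and without the trend (adjusted p = 0.063). The Klf5 term was lost without any 1 library (adjusted p from 0.052 to 0.070) other than the unnumbered SMC siKlf4 library, SMC Scr replicate 3, PDGFR-β+ Scr replicate 2 and PDGFR-β+ siKlf4 replicate 1, with no filter (adjusted p = 0.058) and with quantile normalization (adjusted p = 0.057). Klf2 (-0.13, 95% confidence interval -0.59 to 0.32, adjusted p = 0.66), Klf6 (-0.13, 95% confidence interval -0.33 to 0.06, adjusted p = 0.27) and Klf9 (0.46, 95% confidence interval 0.09 to 0.84, adjusted p = 0.058) did not pass. The Klf9 term did pass in the numbered libraries (adjusted p = 0.030), with median-ratio scaling (adjusted p = 0.027) or quantile normalization (adjusted p = 0.032), in separate fits (adjusted p = 0.038), with a term for the unnumbered libraries (adjusted p = 0.0079), and with the block in the numbered libraries (adjusted p = 0.048) or over 3 SMC pairs (adjusted p = 0.014). It also passed without the unnumbered SMC Scr library, SMC siKlf4 replicate 2 or PDGFR-β+ Scr replicate 2 (adjusted p from 0.026 to 0.045).

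The summed TPM of the family gives the size of these changes next to the loss of Klf4. In SMCs the 10 members summed to 819, 752 and 733 TPM with Scr and to 695, 577 and 573 TPM with siKlf4, and in PDGFR-β+ cells to 592, 592 and 588 TPM with Scr, against 515, 496 and 481 TPM with siKlf4. The total was lower without overlap in both cell types, at 80.1% and 84.2% of Scr (77.4% in the numbered SMC libraries). Klf4 itself lost 73.1 TPM in SMCs and 129 TPM in PDGFR-β+ cells. The sum of the 9 paralogues went from 674 ± 48.4 to 594 ± 63.9 TPM in SMCs, with overlap (86.2% of Scr without overlap in the numbered libraries), and from 449 ± 3.56 to 485 ± 17.4 TPM in PDGFR-β+ cells, without overlap. The gain of 35.3 TPM there was smaller than the Klf4 loss, and with median-ratio scaling the paralogue sum in siKlf4 was 99.8% of Scr in place of 107.9%.

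By partner group, the acetyltransferase-binding members other than Klf4 (Klf2, Klf5, Klf6 and Klf7) summed to 124.5% of Scr in PDGFR-β+ cells, without overlap, and to 105.6% in SMCs, with overlap (102.4% without overlap in the numbered libraries). The Sin3-recruiting members (Klf9, Klf10 and Klf13) summed to 74.5% in PDGFR-β+ cells and 80.4% in SMCs, in both without overlap. Klf2 and Klf5 together were at 87.4% of Scr in PDGFR-β+ cells, with overlap. In SMCs they were at 74.8%, without overlap (68.7% in the numbered libraries). With Klf4 added, the sum was at 18.9% and 37.0%, but it then holds the silenced gene, so the knockdown itself lowers it. Klf6 was the largest part of the remaining pool. Its share of the 10-member sum went from 28.9% to 43.1% in PDGFR-β+ cells and from 23.8% to 34.0% in SMCs. The Klf4 share went to 2.61% and 3.31%. Because the sum includes Klf4, the loss of Klf4 alone raises the share of every other member. The level of Klf6 was 125.4% of Scr in PDGFR-β+ cells and 114.3% in SMCs, where its difference did not pass in the main fit. These sums are descriptions of chosen genes and carry no test.

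**Figure D4:**
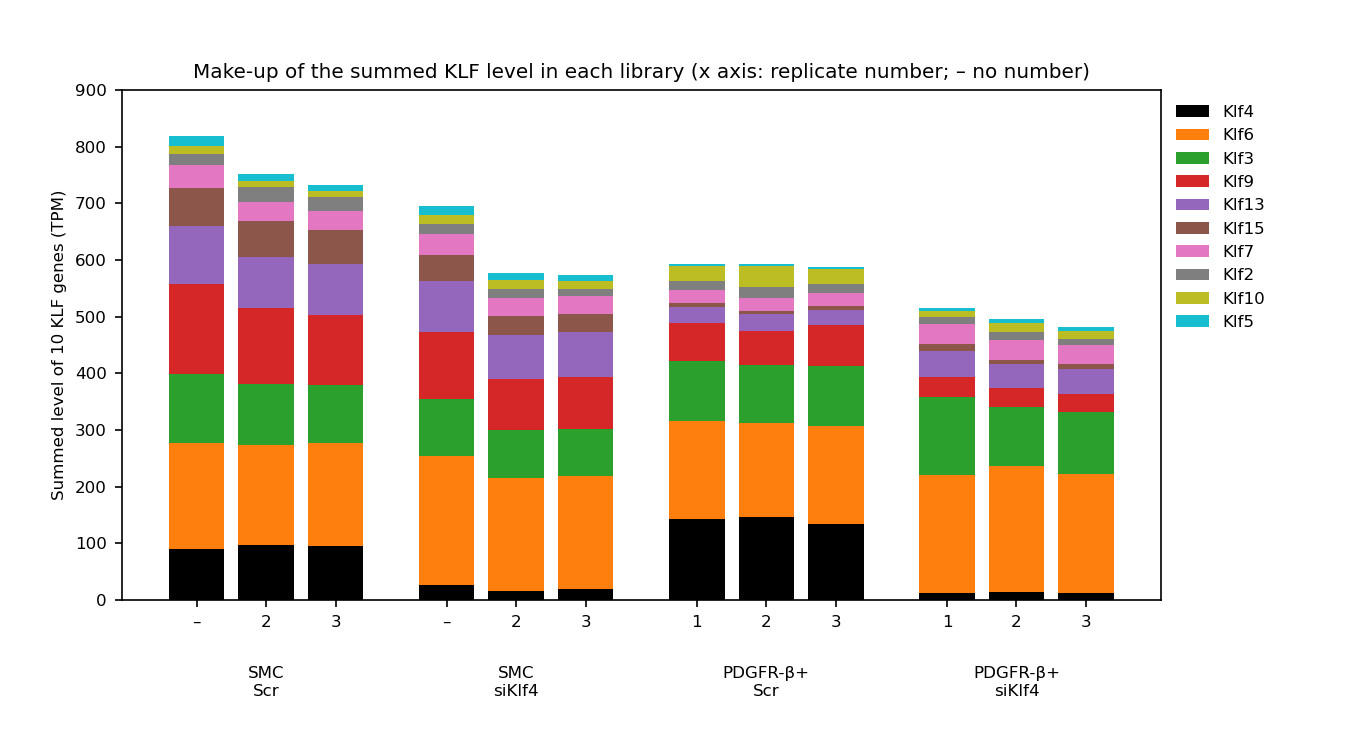
Stacked level of the 10 KLF members in TPM (y axis, from 0) in each of the 12 libraries (x axis, by replicate number; a dash marks the unnumbered SMC libraries). The black Klf4 segment shrinks with siKlf4 and the whole column stays below the Scr columns of the same cell type, at 80.1% of Scr in SMCs and 84.2% in PDGFR-β+ cells on average.

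The other KLF and SP genes, whose products share the zinc finger type, were mostly low. Of 7 other KLF genes, 3 were tested in SMCs and none passed in the main fit, and 4 were tested in PDGFR-β+ cells and 2 rose. Of all genes, 15.6% were called higher in SMCs and 25.3% in PDGFR-β+ cells. Those were Klf11, a Sin3-recruiting relative of Klf10, from 2.75 ± 0.17 to 4.92 ± 0.386 TPM (a log2 rise of 0.66, adjusted p = 0.0038), and Klf8, a CtBP-dependent relative of Klf3, from 2.33 ± 0.641 to 3.98 ± 0.578 TPM (0.59, adjusted p = 0.032). Klf16, named after its values were seen, lay above Scr without overlap in SMCs (10.4 ± 2.25 to 14.5 ± 1.31 TPM, a log2 difference of 0.46, adjusted p = 0.073) and passed in the numbered libraries (0.36, adjusted p = 0.041). Of the 3 tested in SMCs, 1 was also called higher in a joint fit of both cell types. The count was 1 as well with a term for the unnumbered libraries and with the block of 3 pairs. Klf17 and Klf14 were at or near 0 in all libraries. Of 9 SP genes, 4 were tested in each cell type and none of them was called in SMCs. In PDGFR-β+ cells 2 rose, beside 25.3% of all genes, namely Sp1 (0.28, adjusted p = 0.025) and Sp3 (0.39, adjusted p = 0.031). With median-ratio or quantile scaling, 1 of the other KLF genes and 0 of the SP genes were called there. Without siKlf4 replicate 1 or siKlf4 replicate 2, 0 SP genes were called, and without siKlf4 replicate 3, 1 was. The 2 other KLF genes became 1 without Scr replicate 1, Scr replicate 3, siKlf4 replicate 2 or siKlf4 replicate 3.

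The partners of KLF proteins were called more often in PDGFR-β+ cells, where more of all genes were called as well. Of 10 cofactors, none passed in SMCs, where 2 were higher and 1 lower in the numbered libraries alone and 2 were higher without the unnumbered Scr library, and 4 rose in PDGFR-β+ cells with the given and with the median-ratio scaling, where 25.3% and 19.3% of all genes were called higher. These were the deacetylase Hdac1 (130 ± 0.0481 to 199 ± 5.71 TPM, a log2 rise of 0.61, adjusted p = 0.00026), the acetyltransferases Ep300 (0.47, adjusted p = 0.0026) and Kat2b (0.77, adjusted p = 0.0061), and the corepressor Sin3a (0.49, adjusted p = 0.0037). The interaction passed for 3 of the 10, near the 33.0% of all genes. Of 6 ubiquitin ligases that act on KLF proteins, Smurf1 rose in SMCs (0.31, adjusted p = 0.027; 0.29 with adjusted p = 0.040 in the numbered libraries), whereas in PDGFR-β+ cells Fbxw7, which marks KLF2 and KLF5 for degradation, rose by 0.61 (adjusted p = 0.0034) and Wwp1, a ligase for KLF5, fell by 0.78 (adjusted p = 0.00041). Of all genes, 15.6% were called higher in SMCs, and 25.3% higher and 15.3% lower in PDGFR-β+ cells. In PDGFR-β+ cells 2 ligases were called lower without Scr replicate 2, and 2 higher without siKlf4 replicate 3. In SMCs 2 ligases were called higher without Scr replicate 3, and no ligase was called with quantile normalization, with the block in the numbered libraries, or without Scr replicate 2, siKlf4 replicate 2 or siKlf4 replicate 3. Of the MEK5, ERK5 and MEF2 genes that act on Klf2 and Klf4, 5 of 6 were tested and none was called in SMCs (1 lower without Scr replicate 2). In PDGFR-β+ cells Map2k5 (0.31, adjusted p = 0.024) and Mef2d (0.35, adjusted p = 0.011) rose, beside 25.3% of all genes. With median-ratio scaling 1 was called there. With Scr replicate 3 or any 1 siKlf4 library left out, 1 was called there.

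**Figure D5:**
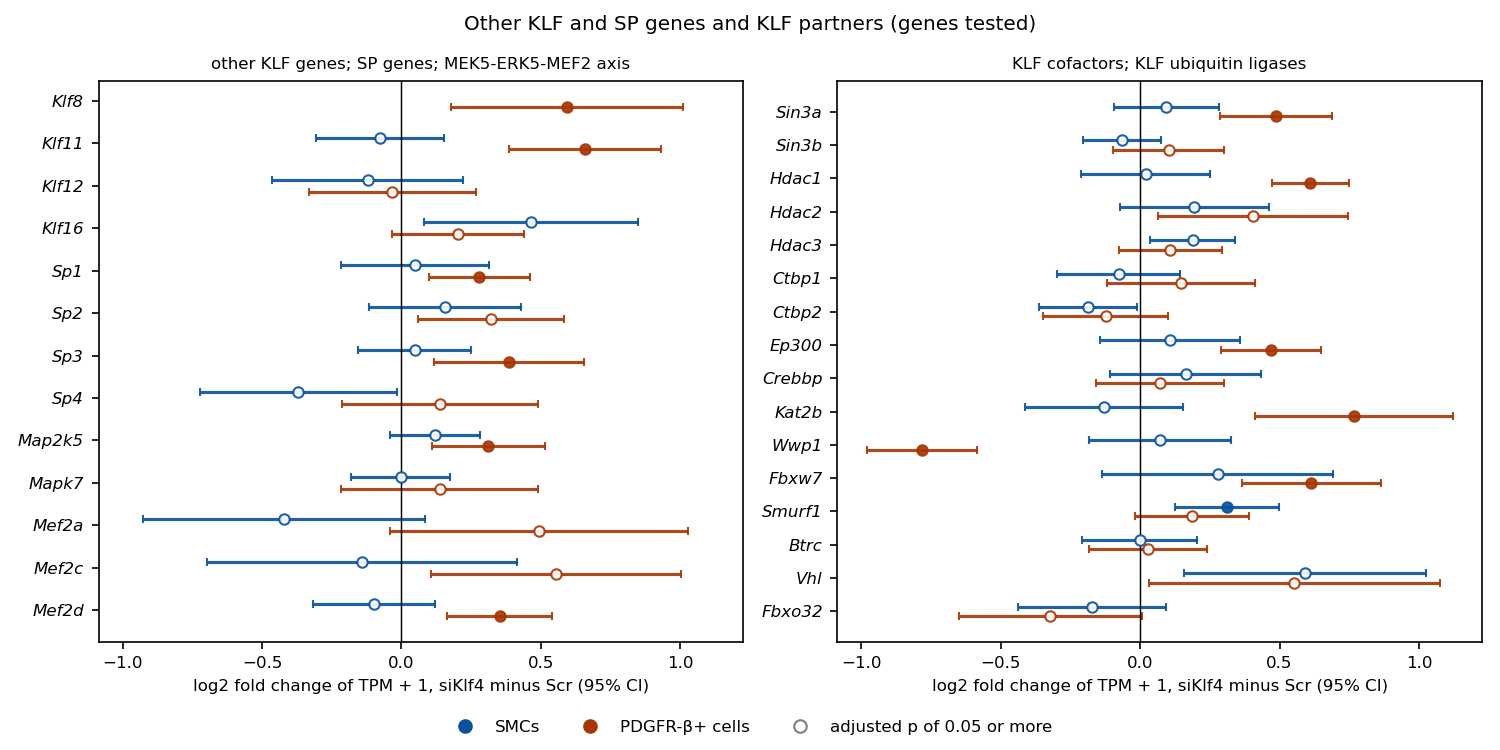
Log2 fold change of TPM + 1, siKlf4 minus Scr (x axis), for the tested genes of the other KLF, SP and MEK5-ERK5-MEF2 lists (left) and of the cofactor and ubiquitin ligase lists (right), in SMCs (blue) and PDGFR-β+ cells (brown); points are limma estimates with 95% confidence intervals, and open points did not pass an adjusted p of 0.05. Smurf1 is the only filled SMC point, and Wwp1 the only filled point below 0.

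Genes of the signals that induce Klf9, Klf15 and Klf10 were read beside them. For both lists below, the shares of all genes called higher and lower were 15.6% and 12.9% in SMCs. In PDGFR-β+ cells these shares were 25.3% and 15.3%. Of 9 glucocorticoid-responsive genes, 1 rose and 3 fell in SMCs, and 5 rose and 2 fell among the 8 tested in PDGFR-β+ cells. In SMCs, 5 fell in the numbered libraries alone, 0 with no filter, and 1 without siKlf4 replicate 2. In PDGFR-β+ cells, 3 rose and 1 fell without siKlf4 replicate 1 or siKlf4 replicate 2, and 1 fell without Scr replicate 1, Scr replicate 3 or siKlf4 replicate 3. The metallothioneins Mt1 and Mt2 fell in both, whereas the hormone-induced chaperone Fkbp5 rose in PDGFR-β+ cells (0.46, adjusted p = 0.0035), where Klf9 fell, and read -0.28 (adjusted p = 0.12) in SMCs, where it passed in the numbered libraries (-0.29, adjusted p = 0.028). Of 6 early TGF-β genes matched, 4 rose and none fell in SMCs, and 2 rose and 2 fell in PDGFR-β+ cells, where 3 fell with median-ratio scaling. The SMC count was 5 in the numbered libraries, and 2 with no filter or without siKlf4 replicate 2 or siKlf4 replicate 3. In PDGFR-β+ cells 1 fell without Scr replicate 1, siKlf4 replicate 2 or siKlf4 replicate 3. The part of these signals in the KLF changes was not tested.

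Contractile smooth muscle genes, the class KLF4 is known to repress, were called higher for 8 of 9 tested in SMCs, with none lower. Of all genes there, 15.6% were called higher and 12.9% lower. The SMC count was 8 in the numbered libraries, and 6 with no filter or without siKlf4 replicate 3. It was 7 without the unnumbered siKlf4 library, Scr replicate 2 or siKlf4 replicate 2. In PDGFR-β+ cells 4 were higher and 3 lower, beside 25.3% and 15.3% of all genes. These became 3 and 4 with median-ratio scaling, and 3 and 1 without Scr replicate 1 or siKlf4 replicate 3. Myh11, the smooth muscle myosin heavy chain, rose from 15.6 ± 0.38 to 49.2 ± 11.2 TPM in SMCs (1.57, adjusted p = 0.0012; 1.38 with adjusted p = 0.0029 in the numbered libraries) and by 0.66 (adjusted p = 0.0022) in PDGFR-β+ cells. Smtn, Lmod1 and Srf were also called higher in PDGFR-β+ cells. The 3 called lower there by limma were Acta2 (-0.29, adjusted p = 0.025), Tagln (-0.54, adjusted p = 0.0032) and Des (-0.82, adjusted p = 0.017). In SMCs, by contrast, Acta2 (1.01, adjusted p = 0.0064) and Tagln (0.81, adjusted p = 0.022) rose. Acta2, at 1373 ± 297 TPM in Scr SMCs and 4369 ± 347 TPM in Scr PDGFR-β+ cells, was abundant in both, and Tagln stood at 425 ± 117 and 1505 ± 136 TPM. Cnn1 (47.1 ± 11.5 and 100.6 ± 16.7 TPM) and Myh11 (15.6 ± 0.38 and 20.8 ± 2.09 TPM) also had lower means in Scr SMCs than in Scr PDGFR-β+ cells, and Myocd was near 0 in both. These genes were thus present in the SMCs without setting them apart from the PDGFR-β+ cells. Pdgfrb itself stood at 214 ± 1.52 TPM in Scr SMCs and 447 ± 25.5 TPM in Scr PDGFR-β+ cells. It fell by 0.41 (adjusted p = 0.022) with siKlf4 in the latter. Of the 6 mesenchyme markers listed, Col1a1 and Cspg4 also had higher means in Scr PDGFR-β+ cells. Pdgfra (417 against 169 TPM), Dcn (409 against 71.2 TPM) and Col1a2 (1749 against 1482 TPM) had higher means in Scr SMCs. With siKlf4, 2 of the 6 were called lower in SMCs and 3 in PDGFR-β+ cells, and none higher. Of all genes, 12.9% and 15.3% were called lower. The numbered SMC libraries alone gave 5 lower and 1 higher.

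Markers of other cell types were low. The 6 epithelial markers summed to at most 1.10 TPM in any library, with Sftpc and Krt8 at 0 throughout. Of 5 endothelial markers, which matter here because endothelium is rich in Klf2 and Klf4, Tie1 was at 0 and Pecam1 and Cdh5 near 0 in both cell types, and Kdr was the only one with a mean above 1 TPM. Kdr rose from 0.663 ± 0.15 to 2.88 ± 0.217 TPM in SMCs (1.22, adjusted p = 0.0023; 1.24 with adjusted p = 0.012 in the numbered libraries) and went from 15.3 ± 1.69 to 12.5 ± 0.612 TPM in PDGFR-β+ cells. The 5 macrophage markers summed to 4.68 to 7.19 TPM in Scr and 4.44 to 6.51 TPM in siKlf4 SMCs. In PDGFR-β+ cells they summed to 28.6 to 29.9 TPM with Scr and 18.7 to 22.8 TPM with siKlf4, with Csf1r and Lyz2 called lower, Cd68 at 7.56 ± 1.37 and 8.77 ± 0.746 TPM (0.20, adjusted p = 0.29) and the defining markers Ptprc and Adgre1 at or near 0. In bulk libraries, fewer cells of a type and less RNA per cell cannot be told apart, and the part of these levels in the KLF changes was not tested.

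Of 1765 genes that passed in both cell types, Klf2 and Klf9 being the 2 paralogues among them and predicted gene models left out, the nearest to Klf4 by the distance between pairs of log2 fold changes in the 2 cell types, were Nkain4 (distance 0.47), the protease inhibitor gene Serpina3n (0.66) and Serpinb1a, another protease inhibitor gene (0.72). Nkain4 went from 8.53 to 0.55 TPM in SMCs and from 73.3 to 6.42 TPM in PDGFR-β+ cells. Serpina3n went from 10660 to 2590 TPM in SMCs and from 155 to 24.0 TPM in PDGFR-β+ cells.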

How the data were processed

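Bulk RNA-seq libraries of SMCs and PDGFR-β+ cells (4 groups of 3) were available as TPM values that the authors deposited in 1 table per cell type. Per the labels and the study's methods, reads were trimmed and aligned to mm10 with HISAT2 and GENCODE annotation, and abundance was estimated with StringTie and ballgown; the strand setting of the counting is not given in the sources used here. The study's own test, DESeq2 on counts, was not used here. The study's methods state a target number of read clusters per sample, but not the depth that each library reached. Each library sums to 1000000 TPM, so that depth is unknown, no counting error can be given, and a change in a few abundant genes shifts the others. No other columns of per-sample values were present. The labels give groups; the 2 unnumbered SMC columns were matched to their group only.

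Values were analysed as log2(TPM + 1) by limma 3.58.1 (R 4.3.3) with a mean-variance trend in eBayes, in a fit of its own per cell type, keeping genes that averaged 1 TPM or more across its 6 libraries. The difference between cell types was the interaction term over 12 libraries, for genes at 1 TPM or more in both. The p-values were two-sided, adjusted by Benjamini-Hochberg over all genes tested, with a threshold of 0.05. The scripts were tested on simulated data. An exact permutation test of 3 libraries against 3 cannot go below 0.1 and was not made. All 10 members were described, and genes of the other lists were named when they passed in a cell type or define a list. The members and lists were chosen with earlier results of these data known. Alternatives were a pseudocount of 0.1, no filter, a minimum of 5 TPM, median-ratio and quantile scaling, no trend, 1 joint fit or separate fits, a replicate block, the numbered SMC libraries, a term for the unnumbered ones, each library left out, and, added after seeing the data, a block that pairs the unnumbered SMC libraries. Gene positions come from GENCODE M21, in which Klf5, Klf9 and Klf10 carry another version of the same identifier, and promoters from RefSeq. Figures were drawn with matplotlib 3.10.9.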

Additional observations from a re-analysis of the deposited data

Results flagged for a closer look

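The response to siKlf4 differed between the cell types, by the interaction term of limma, for 7 of the 10 KLF members. The same term called 33.0% of all 13032 genes tested. With 1 library left out, the Klf3 call was kept in 3 and the Klf5 call in 4 of 12 fits. As the SMC effect minus the PDGFR-β+ effect on the log2 scale, the difference was 1.19 for Klf4, 1.28 for Klf10, -1.12 for Klf15, -0.82 for Klf13, -0.77 for Klf5, -0.66 for Klf7 and -0.44 for Klf3. Klf4 fell in both cell types and further in PDGFR-β+ cells. Klf10 fell in PDGFR-β+ cells and Klf15 in SMCs, each without passing in the other cell type. Klf5, Klf7 and Klf13 rose in PDGFR-β+ cells without passing in SMCs, and Klf3 passed in neither with all libraries and no block. The cell types also differ in source, culture history and the depth of the Klf4 knockdown, and these cannot be told apart from the cell type here.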

How the results depend on the processing

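The depth that each library reached is unknown and each group has 3 libraries, so precision rests on their spread. Over 309 alternative values of the 20 fold changes, 279 kept their direction and side of the threshold and 2 turned, and over 229 alternative values of the 10 differences between cell types, 196 did and 1 turned. The values that turned were not called: with 1 library left out, Klf5 in SMCs ranged from -0.25 to 0.091 (above 0 without the unnumbered Scr library or siKlf4 replicate 3), and the difference for Klf2 from -0.24 to 0.0024 (above 0 without SMC siKlf4 replicate 3). The number of paralogues higher in SMCs, 0 with all libraries, was 1 in a joint fit of both cell types, 1 in the numbered libraries and 2 with a term for the unnumbered ones, and ranged from 0 to 1 with 1 library left out. The number lower in SMCs, 3, was 1 with no filter, 5 in the numbered libraries and 5 with that term, and ranged from 1 to 4 with 1 library left out. The paralogue sum in PDGFR-β+ cells, 107.9% of Scr, was 99.8% with median-ratio scaling, which moved the median log2 fold change of all genes from 0.10 to 0.00. The cause of these moves was not tested.

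The deviations of same-numbered Scr and siKlf4 libraries correlated at 0.07, -0.02 and 0.00 in PDGFR-β+ cells. No pairing was seen there, but values this few cannot exclude one. In SMCs they correlated at 0.19 and 0.20 for the 2 numbered pairs and at 0.36 for the unnumbered libraries, each library correlating best with its own pair. These are hints from the data, since the labels state no pairing. With the replicate block on the numbered libraries, 4 paralogues were higher and 3 lower in PDGFR-β+ cells, 0 higher and 4 lower in SMCs, and 7 passed for the difference between cell types. With the unnumbered SMC libraries taken as another pair in the block, an alternative added after seeing the data, 1 paralogue was higher and 5 were lower in SMCs, and 7 passed for the difference.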
